A study of Mus musculus with 16 samples.

Results

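Gastrocnemius (Gas) and soleus (Sol) muscles of LSD1-mKO mice that had received dexamethasone (Dex) were compared with each other, to see which differences between a fast-dominant and a slow-dominant muscle are present when the muscle cells lack the histone demethylase LSD1. The comparison holds all 10 LSD1-mKO libraries of the series, chosen by their labels, out of 16 in all. Of these, 5 are LSD1-mKO Gas and 5 are LSD1-mKO Sol. The other 6 libraries, 3 from Gas and 3 from Sol of wild type (WT) mice, served to set the same muscle difference beside that found with LSD1 present. LSD1-mKO mice carry floxed *Lsd1* on both alleles and a tamoxifen-activated Cre recombinase, CreERT2, driven by the human ACTA1 promoter, which is active in differentiating and differentiated muscle cells, so that other cells of the tissue keep the gene. WT mice carry the floxed *Lsd1* without CreERT2. All animals were C57BL/6 males of 8 weeks, all were given 75 mg/kg of tamoxifen for 5 days and 1 mg/kg of Dex for 7 days, and no muscle without Dex enters a comparison.

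Skeletal muscle fibers differ in the isoforms of their contractile proteins. Type 1 (slow) fibers carry the myosin heavy chain of *Myh7* and live on oxidative metabolism, whereas type 2A, 2X and 2B (fast) fibers carry those of *Myh2*, *Myh1* and *Myh4*, with glycolysis gaining weight toward type 2B. Mouse Gas consists largely of type 2B fibers and Sol of type 1 and 2A fibers. LSD1 removes methyl groups from lysine 4 of histone H3, and glucocorticoids such as Dex waste fast fibers more than slow ones.

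The 10 LSD1-mKO libraries held between 10130415 and 24576377 reads assigned to genes. Levels are given as CPM, reads of a gene in 1000000 reads of its library after TMM scaling, and a count of 0 allows up to 3 reads, or 0.122 to 0.296 CPM before scaling in these libraries (counting error only). The Gas and the Sol libraries were counted in separate tables and carry different series tags in their names, so muscle and library series cannot be told apart, and neither can fewer cells of a type and less RNA per cell. Nothing in the labels says that the replicates are more than separate samples of a group, so p-values measure the spread between these samples. In the data, same-numbered LSD1-mKO Gas and Sol libraries deviated together from their group means. The main fits did not take this pairing into account. The first principal component of the 10 libraries, with 51.0% of the variance, separated all Gas from all Sol libraries.

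*Kdm1a*, the gene of LSD1 (chromosome 4, 136550533 to 136602787, GRCm38), had 13.2, 13.2, 17.7, 14.7 and 12.0 CPM in the 5 LSD1-mKO Gas libraries and 11.2, 9.12, 12.2, 9.15 and 12.9 CPM in the 5 LSD1-mKO Sol libraries. Every WT library lay higher, at 33.4 to 48.2 CPM. Between the LSD1-mKO muscles, *Kdm1a* had a log2 fold change of 0.38 (Gas over Sol, as throughout; SE 0.148), with an adjusted p of 0.0668 in the edgeR quasi-likelihood test and 0.0450 in the same test with the replicate number as a block. *Esr1*, whose count includes the estrogen receptor part of CreERT2, had 644 to 1534 CPM in LSD1-mKO Gas, 303 to 546 CPM in LSD1-mKO Sol and at most 21.4 CPM in WT. It was higher in LSD1-mKO Gas than in LSD1-mKO Sol by 1.26 (log2, adjusted p 0.00239, SE 0.248), so reads of *Esr1*, transgene included, were not equally abundant in the muscles.

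Of 13151 genes tested, 1940 were higher in LSD1-mKO Gas and 1971 higher in LSD1-mKO Sol at an adjusted p under 0.05, which is 14.8% and 15% of the genes. At least 2-fold differences among them numbered 638 higher in Gas (4.85%) and 715 higher in Sol (5.44%). The libraries of the muscles did not overlap in 21.4% of the genes. These shares are the background for the counts below that name no other fit. With the replicate number as a block, 19.2% of the genes were higher in Gas and 19.3% higher in Sol, and with the ribosomal covariate described next 5.34% and 6.05%.

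The level of ribosomal protein genes moved with muscle. The mean level of 81 ribosomal protein genes lay between 7.12 and 7.95 log2 CPM in LSD1-mKO Gas and between 6.68 and 6.87 in LSD1-mKO Sol, with no overlap and with Gas replicate 5 the highest. Gene length moved too. The median log2 fold change was 0.38 over 637 genes with transcripts under 1 kb, 0.17 over those of 1 to 2 kb, 0.01 over those of 2 to 4 kb and -0.12 over 4484 genes above 4 kb. Without Gas replicate 5 the first of these medians was 0.21. When the fit took that ribosomal level as a covariate, it called 1498 genes in place of 3911. The part of these measures in the results below was examined only by that covariate, by leaving out libraries and by setting genes against others of like length. Since the ribosomal level did not overlap between the muscles, the covariate cannot tell it apart from muscle. A call lost with the covariate therefore does not measure how much of a difference goes with that level.

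The 5 marker genes went with their labels. *Myh4*, the type 2B heavy chain (chromosome 11, 67237812 to 67260447), had 20613, 34192, 37665, 45342 and 33271 CPM in LSD1-mKO Gas and 217, 547, 306, 103 and 1143 CPM in LSD1-mKO Sol. The lowest Gas library stood 1 order of magnitude above the highest Sol library, and the Sol libraries spread widely among themselves. The log2 fold change was 6.22 (adjusted p 1.72e-05, SE 0.615). *Tnnc2*, the fast troponin C (chromosome 2, 164777161 to 164779734), had 9311, 8377, 6414, 9736 and 19989 CPM in Gas and 3995, 5411, 4584, 5173 and 6263 CPM in Sol. Its groups barely parted, with Gas replicate 5 far above the others, at a log2 fold change of 1.09 (adjusted p 0.0101, SE 0.274), and the call was lost with the ribosomal covariate. *Tnnc2* shares exonic sequence with *Ube2c*.

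The slow markers differed more evenly. *Myh7* (chromosome 14, 54970684 to 54994626) had 149.6, 177, 223, 206 and 203 CPM in LSD1-mKO Gas and 4610, 5981, 7181, 7011 and 5926 CPM in LSD1-mKO Sol. The log2 fold change was -4.99 (adjusted p 2.08e-08, SE 0.197), and reads shared with its antisense gene *Mhrt* cannot be placed. *Tnni1*, the slow troponin I (chromosome 1, 135783033 to 135810989), had 112, 103, 67.3, 91.0 and 153 CPM in Gas and 1385, 1702, 1290, 2230 and 1972 CPM in Sol, a log2 fold change of -4.01 (adjusted p 4.88e-07, SE 0.248). *Myl2*, the slow regulatory light chain (chromosome 5, 122092724 to 122113473), had 736, 795, 362, 375 and 581 CPM in Gas and 4062, 4946, 3544, 4781 and 4428 CPM in Sol. Its log2 fold change was -2.92 (adjusted p 6.12e-06, SE 0.247). For all 3 genes each Gas library lay below each Sol library.

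The 250 bases before an annotated start of 4 of these markers (RefSeq, GRCm38.p6) are shown because these genes parted the muscles in opposite directions. Each window precedes the outermost start that the promoter set held for the gene. The windows of *Myh4*, *Tnnc2* and *Myh7* adjoin the gene spans given above. That of *Tnni1* lies inside its gene span, before an internal start. Capitals mark matches, on either strand, to the E-box CAGCTG bound by myogenic factors, the MCAT element CATTCC bound by TEAD factors, the MEF3 element TCAGGTT bound by homeobox factors of the *Six2* family, the element AAGGTCA of estrogen-related receptors, and the consensus of MEF2, a degenerate motif of 10 bases. No match of one motif lay over a match of another in the printed windows. The windows lie at chr11:67237562-67237811 (plus strand), chr2:164779735-164779984 (minus strand), chr14:54994627-54994876 (minus strand) and chr1:135799171-135799420 (plus strand), in the order printed.
Myh4: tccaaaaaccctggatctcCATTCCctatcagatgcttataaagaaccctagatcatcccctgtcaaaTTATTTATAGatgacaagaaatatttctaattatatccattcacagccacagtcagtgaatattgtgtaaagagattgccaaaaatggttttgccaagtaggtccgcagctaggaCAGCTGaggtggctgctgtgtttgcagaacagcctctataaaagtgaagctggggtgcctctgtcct
Tnnc2: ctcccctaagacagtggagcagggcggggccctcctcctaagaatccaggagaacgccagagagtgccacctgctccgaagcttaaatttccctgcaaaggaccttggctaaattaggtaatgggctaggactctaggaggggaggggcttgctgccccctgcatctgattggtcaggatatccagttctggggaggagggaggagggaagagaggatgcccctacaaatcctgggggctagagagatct
Myh7: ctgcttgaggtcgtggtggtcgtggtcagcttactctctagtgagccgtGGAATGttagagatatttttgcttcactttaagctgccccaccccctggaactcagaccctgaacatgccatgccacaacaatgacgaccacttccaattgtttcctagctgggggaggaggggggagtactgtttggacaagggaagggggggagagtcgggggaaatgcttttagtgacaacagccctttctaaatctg
Tnni1: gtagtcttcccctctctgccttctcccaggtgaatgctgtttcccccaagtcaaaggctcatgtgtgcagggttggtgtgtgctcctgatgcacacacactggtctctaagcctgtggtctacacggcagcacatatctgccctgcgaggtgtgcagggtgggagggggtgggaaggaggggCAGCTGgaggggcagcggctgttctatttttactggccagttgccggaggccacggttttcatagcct

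The *Myh4* window held a MEF2 match, an MCAT match and an E-box, that of *Myh7* an MCAT match, that of *Tnni1* an E-box, and that of *Tnnc2* none of the 5 motifs. The E-box was in 12.0% of the 9997 windows of genes tested, in 15.01% of 453 windows of genes called and at least 2-fold higher in LSD1-mKO Gas and in 15.5% of 498 windows of those higher in LSD1-mKO Sol. The MEF2 consensus was in 1.83%, 2.43% and 3.61% of these windows, the MCAT element in 10.8%, 9.93% and 13.1%, the MEF3 element in 2.72%, 3.09% and 1.81%, and the receptor element in 2.67%, 4.42% and 3.41%. Over all 27025 windows in the table the shares were 12.7% for the E-box, 3.03% for MEF2, 12.6% for MCAT, 3.52% for MEF3 and 4.04% for the receptor element. These are letter matches, not sites at which binding was measured.

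Fast and slow isoforms of the same protein were set against each other within each library, which frees the comparison from library scaling. In all 12 pairs the log2 ratio of fast to slow reads per transcript length was higher in every LSD1-mKO Gas than in every LSD1-mKO Sol library. The difference between the muscle means ran from 2.74 for the calsequestrins *Casq1* and *Casq2* to 11.6 for *Myh4* and *Myh7* on the log2 scale. Each pair had the smallest p that 5 against 5 libraries allow (exact permutation test, two-sided, p 0.00794, and 0.00794 adjusted over the 12 pairs). This test took the libraries as unpaired, although same-numbered Gas and Sol libraries deviated together, and no paired test of the ratios was run.

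The *Myh4* to *Myh7* ratio had a mean of 7.497 ± 0.25 (log2, SD, n = 5) in LSD1-mKO Gas and -4.12 ± 1.38 (SD, n = 5) in LSD1-mKO Sol, so that the fast chain led in Gas and the slow chain in Sol. The same change of sign was seen for the essential light chains *Myl1* to *Myl3*, at 2.36 ± 0.48 and -2.11 ± 0.52, for the alpha-actinins of the Z disc, *Actn3* to *Actn2*, at 2.85 ± 0.25 and -3.14 ± 0.38, for their partners *Myoz1* to *Myoz2*, at 3.37 ± 0.12 and -1.02 ± 0.47, and for the myosin-binding proteins *Mybpc2* to *Mybpc1*, at 2.85 ± 0.47 and -1.92 ± 0.83. The troponins kept the fast isoform in the lead in both muscles. The fast to slow ratio of troponin I, *Tnni2* to *Tnni1*, was 7.60 ± 0.29 in Gas and 1.95 ± 0.26 in Sol, that of troponin T, *Tnnt3* to *Tnnt1*, 6.28 ± 0.48 and 1.46 ± 0.21, and that of troponin C, *Tnnc2* to *Tnnc1*, 5.62 ± 0.69 and 1.20 ± 0.27. The calcium pumps of the sarcoplasmic reticulum, *Atp2a1* to *Atp2a2*, stood at 7.68 ± 0.20 and 1.58 ± 0.25. The lactate dehydrogenases *Ldha* to *Ldhb* stood at 2.89 ± 0.24 and -0.21 ± 0.17.

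In 11 of the 12 pairs the difference between the muscles was smaller in LSD1-mKO than in WT. The WT difference was 15.02 for *Myh4* to *Myh7*, 6.07 for *Mylpf* to *Myl2* (3.85 in LSD1-mKO), 7.87 for *Actn3* to *Actn2* (5.99 in LSD1-mKO) and 4.19 for *Casq1* to *Casq2* (2.74 in LSD1-mKO). The exception was *Atp2a1* to *Atp2a2*, with 6.10 in WT and 6.11 in LSD1-mKO. These WT values are a description with 3 libraries a muscle, and the pairs share libraries.

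**Figure D1:**
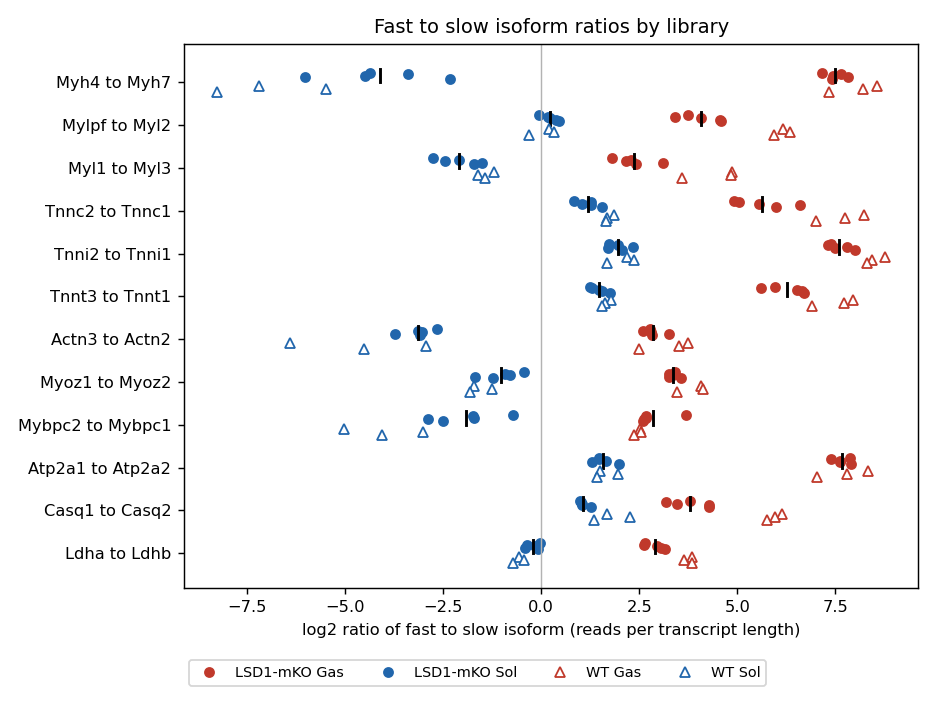
Log2 ratio of the fast to the slow isoform, in reads per transcript length (x axis), for 12 pairs of contractile, calcium-handling and metabolic isoforms (y axis), 1 point per library. Filled circles are LSD1-mKO, open triangles WT, red Gas and blue Sol, and the black ticks are LSD1-mKO group means. In every pair the 5 LSD1-mKO Gas points lie to the right of the 5 LSD1-mKO Sol points, and *Myh4* to *Myh7* spans the widest range.

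The adult heavy chains were also expressed as shares of their sum, *Myh1* + *Myh2* + *Myh4* + *Myh7*, in reads per transcript length. In LSD1-mKO Gas *Myh4* took 92.4%, 89.5%, 93.7%, 86.8% and 86.1%, and in LSD1-mKO Sol 2.54%, 3.01%, 1.99%, 0.375% and 4.204%. Its mean was 89.7 ± 3.34% in Gas and 2.42 ± 1.41% in Sol (SD, n = 5 each), a difference of 87.3 percentage points (exact permutation test, p 0.00794, adjusted over the 4 chains 0.0106). In the Sol libraries *Myh2* took 38.9%, 54.4%, 42.6%, 56.2% and 56.9%, against 3.71% to 6.28% in Gas, and *Myh7* took 52.1%, 31.8%, 44.9%, 24.6% and 21.0%, against 0.381% to 0.647% in Gas. Both differences had the same p values as that of *Myh4*. The tests of the shares also took the libraries as unpaired. The Sol libraries with most *Myh7* had least *Myh2*, and *Myh4* stayed the smallest share in each.

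*Myh1*, the type 2X chain, was the chain that differed least. It took 2.36%, 3.77%, 2.04%, 6.95% and 7.16% in LSD1-mKO Gas and 6.51%, 10.8%, 10.5%, 18.8% and 17.8% in LSD1-mKO Sol, with overlapping ranges, and its mean was lower in Gas by 8.44 percentage points (exact permutation test, p 0.0238, adjusted 0.0238). As a level, *Myh1* was not called (log2 fold change -0.62, adjusted p 0.456, SE 0.590), but with the replicate number as a block its adjusted p was 0.0169. In WT Sol *Myh4* took 0.184%, 0.567% and 0.0939%, and *Myh1* 20.8%, 33.4% and 27.8%. Heavy chain genes resemble each other, and reads that mapped to several of them were left out by the counting.

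**Figure D2:**
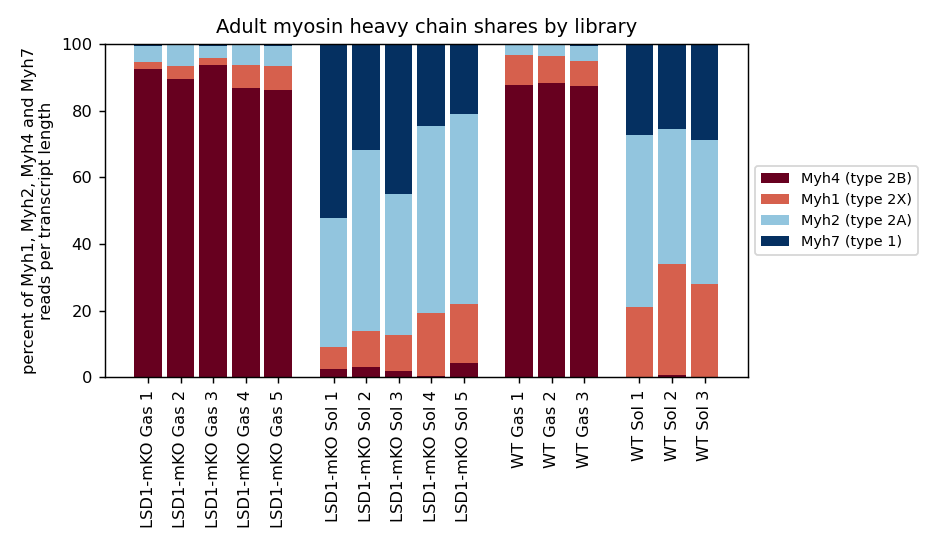
Share of each adult myosin heavy chain in the reads per transcript length of *Myh1*, *Myh2*, *Myh4* and *Myh7* (y axis, percent), 1 stacked bar per library (x axis). *Myh4* takes 86.1% to 93.7% in LSD1-mKO Gas and 0.375% to 4.204% in LSD1-mKO Sol, and the share of *Myh7* varies from 21.0% to 52.1% among the LSD1-mKO Sol libraries.

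Genes were then described by lists. All 17 slow sarcomere genes were higher in LSD1-mKO Sol, each at least 2-fold, with a median log2 fold change of -2.92 against 0.01 over all genes tested. Besides *Myh7* and the isoforms above, *Tpm3*, the slow tropomyosin, had a log2 fold change of -4.04 (adjusted p 3.96e-08, SE 0.189), and *Myl6b*, a slow light chain, one of -3.78 (adjusted p 2.08e-08, SE 0.165). *Myl6b* had 24.5 to 29.0 CPM in LSD1-mKO Gas and 285 to 462 CPM in LSD1-mKO Sol. Of 14 fast sarcomere genes, 13 were higher in LSD1-mKO Gas and none was higher in Sol, with a median of 1.45. *Actn3* stood at 15868 to 19706 CPM in Gas and 488 to 962 CPM in Sol (log2 fold change 4.38, adjusted p 5.70e-08, SE 0.219), and *Mybpc2* differed by 3.08 (adjusted p 3.33e-07, SE 0.183). *Mylpf*, the fast regulatory light chain, differed by 0.88 (adjusted p 0.0111, SE 0.226) and its libraries overlapped. With the ribosomal covariate 5 of the 14 fast genes and 16 of the 17 slow genes were called, and the median of the fast list was 0.87.

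Of 13 heavy chain genes tested, 1 was higher in LSD1-mKO Gas and 7 were higher in LSD1-mKO Sol. Not called were *Myh1*, *Myh11* of smooth muscle, the perinatal *Myh8* (log2 fold change 0.06) and the non-muscle *Myh9* (-0.02) and *Myh14* (-0.21). *Myh3*, the embryonic chain, had 7.06, 15.8, 7.95, 5.15 and 6.25 CPM in LSD1-mKO Gas and 152, 109, 132, 261 and 95.6 CPM in LSD1-mKO Sol. Its log2 fold change was -4.14 (adjusted p 7.52e-06, SE 0.360). *Myh7b*, a slow-tonic chain, differed by -3.48 (adjusted p 2.08e-08, SE 0.144) and *Myh10*, a non-muscle chain, by -2.45 (adjusted p 6.71e-05, SE 0.289).

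Calcium handling was divided by the type of fiber each gene serves. Of 28 genes, 7 were higher in LSD1-mKO Gas and 8 higher in LSD1-mKO Sol. *Pvalb*, the calcium buffer of fast fibers, had 3781, 3254, 3254, 4155 and 10440 CPM in Gas and 79.7, 96.2, 106, 132 and 242 CPM in Sol, a log2 fold change of 5.26 (adjusted p 5.82e-06, SE 0.441). *Atp2a2*, the slow calcium pump, had 160.2 to 256 CPM in Gas and 3908 to 5652 CPM in Sol (log2 fold change -4.55, adjusted p 2.08e-08, SE 0.194). *Casq2*, the slow calsequestrin, differed by -2.62 (adjusted p 8.84e-06, SE 0.234), whereas *Casq1*, the fast one, had 1300, 1197, 602, 1165 and 1604 CPM in Gas and 966, 1210, 859.6, 1153 and 1306 CPM in Sol, which overlapped (log2 fold change 0.11, adjusted p 0.748, SE 0.224). *Sln*, sarcolipin, which inhibits the pumps, had 19.1 to 111 CPM in Gas and 228 to 551 CPM in Sol (log2 fold change -2.58, adjusted p 0.00154, SE 0.476). Its call was lost with the ribosomal covariate.

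Glycolysis and glycogen genes were the metabolic group with the widest difference toward Gas. Of 37 genes, 23 were higher in LSD1-mKO Gas and 6 higher in LSD1-mKO Sol, with a median of 1.17, and the ribosomal covariate left 20 higher in Gas and 1 higher in Sol. *Pfkfb3*, which makes an activator of phosphofructokinase, had 232, 731, 752, 602 and 266 CPM in Gas and 8.95, 6.65, 32.3, 17.7 and 15.6 CPM in Sol (log2 fold change 4.99, adjusted p 1.95e-05, SE 0.501). *Gpd1*, *Fbp2* and *Phkg1*, which serve glycerol phosphate, gluconeogenic and glycogen reactions, differed by 2.77, 2.63 and 2.45. Higher in Sol were *Ldhb*, the lactate dehydrogenase of oxidative tissue, by -1.70 (adjusted p 3.67e-05, SE 0.184), and *Slc16a1*, a lactate carrier, by -0.99 (adjusted p 0.00130, SE 0.178). *Slc2a1* and *Gbe1*, also among the 6, lost their call in 7 and 6 of the 10 fits without a library. *Slc16a1*, *Slc2a1* and *Gbe1* were not called with the ribosomal covariate.

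Fatty acid and TCA cycle genes lay on the side of Sol. Of 33 genes of fatty acid uptake and oxidation, 17 were higher in LSD1-mKO Sol and 1, *Ucp3*, was higher in LSD1-mKO Gas (0.99, adjusted p 0.00121, SE 0.177), with a median of -0.60. *Lpl*, lipoprotein lipase, had 619.5, 599, 830.0, 651 and 659 CPM in Gas and 1177, 1707, 2270, 2186 and 2518 CPM in Sol (log2 fold change -1.54, adjusted p 0.000126, SE 0.200), and *Fabp3*, the fatty acid binding protein of oxidative muscle, differed by -1.33 (adjusted p 9.58e-05, SE 0.166). Of 21 TCA cycle genes, 8 were higher in Sol and none in Gas, with a median of -0.31. *Idh2*, mitochondrial isocitrate dehydrogenase, differed most, by -1.49 (adjusted p 3.31e-05, SE 0.16), with 390.0 to 514 CPM in Gas and 882 to 1503 CPM in Sol.

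The subunits of oxidative phosphorylation did not follow this direction. Of 75 tested, 9 were higher in LSD1-mKO Gas and 4 higher in LSD1-mKO Sol, shares of the list below the background of all genes, and the median was 0.23. The 9 included small subunits with short mRNAs such as *Atp5e*, *Ndufa3* and *Uqcr11*, while the 4 included *Uqcrc2*, a core protein of complex III, at -0.70 (adjusted p 0.00163, SE 0.130), and *Ndufs1*, the largest subunit of complex I, at -0.51 (adjusted p 0.0118, SE 0.131). *Atp5e* had 634, 461, 363, 412 and 1698 CPM in Gas and 232, 342, 307, 248 and 318 CPM in Sol, with Gas replicate 5 far above the rest. The direction of this list turned with the processing. Its median was -0.51 with the ribosomal covariate, under which 27 members were higher in Sol and 0 in Gas, -0.04 without Gas replicate 5, and -0.12 relative to genes of like transcript length.

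*Mb*, myoglobin, which stores oxygen in oxidative fibers, had 2335, 1962, 2105, 2341 and 5185 CPM in LSD1-mKO Gas and 4435, 5794, 5863, 8218 and 9495 CPM in LSD1-mKO Sol. The muscles overlapped only through Gas replicate 5, at a log2 fold change of -1.27 (adjusted p 0.00641, SE 0.294). *Ckm*, the cytosolic creatine kinase, was higher in Gas by 1.59 (adjusted p 4.63e-05, SE 0.178) and *Ckmt2*, the mitochondrial one, higher in Sol by -0.89 (adjusted p 0.00323, SE 0.185).

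Transcription factors that shape fiber type or limb position parted the muscles as well. Of 43 regulators of fiber type, 9 were higher in LSD1-mKO Gas and 13 higher in LSD1-mKO Sol. With the ribosomal covariate 8 were higher in Gas and 6 in Sol, and the median log2 fold change was 0.06 in place of -0.07. *Six2*, a homeobox factor of the family that drives fast genes, had 14.4, 14.9, 10.2, 16.3 and 19.3 CPM in Gas and 0.583, 0.883, 0.256, 0.327 and 0.315 CPM in Sol, where it stood near the limit set by depth. Its log2 fold change was 5.01 (adjusted p 3.33e-07, SE 0.295). *Maf*, of the large Maf factors tied to type 2B fibers, differed by 2.33 (adjusted p 1.10e-05, SE 0.215) and *Eya4*, a partner of the *Six2* family, by 2.21 (adjusted p 7.11e-05, SE 0.263). *Prox1*, a factor of slow fibers, had 1.12, 1.72, 1.49, 1.81 and 0.860 CPM in Gas and 11.9, 10.003, 11.6, 11.8 and 6.03 CPM in Sol (log2 fold change -2.89, adjusted p 8.10e-06, SE 0.253). The estrogen-related receptors *Esrrg* and *Esrrb*, which drive oxidative genes, differed by -2.39 (adjusted p 0.000579, SE 0.383) and -2.05 (adjusted p 0.000246, SE 0.292). The call of *Esrrg* was lost with the ribosomal covariate, and that of *Esrrb* was not. *Rcan1*, a target of calcineurin signaling, differed by -1.76 (adjusted p 0.000263, SE 0.253).

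Of 22 limb position factors tested, 12 were higher in LSD1-mKO Gas and 6 higher in LSD1-mKO Sol. With the ribosomal covariate 6 were higher in Gas and 3 in Sol, and the median log2 fold change was 0.15 in place of 0.49. *Hoxd10* had 2.70 to 3.83 CPM in Gas and 0.327 to 0.883 CPM in Sol, and *Hoxd9* and *Hoxd8* differed in the same direction by 2.35 (adjusted p 6.18e-06, SE 0.200) and 1.72 (adjusted p 1.95e-05, SE 0.173). *Tbx3*, higher in Sol, differed by -1.22 (adjusted p 7.39e-05, SE 0.147).

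Part of the genes of muscle wasting and of the glucocorticoid response were higher in LSD1-mKO Gas. Of 28 atrophy genes, 12 were higher in Gas and 1, the small heat shock protein *Hspb7*, was higher in Sol, with a median of 0.60. The study picked some genes of this list from the Gas libraries used here, so the list is not independent evidence of a direction. *Trim63*, a ubiquitin ligase of the contractile proteins, had 1403, 2009, 6022, 1160 and 2139 CPM in LSD1-mKO Gas and 232, 219, 423, 161 and 217 CPM in LSD1-mKO Sol (log2 fold change 3.35, adjusted p 0.000152, SE 0.446). *Fbxo32*, the other ligase of wasting muscle, had 903, 2327, 4902, 1492 and 1656 CPM in Gas and 324, 333, 881, 513 and 782 CPM in Sol (log2 fold change 2, adjusted p 0.00418, SE 0.431). With the replicate block 13 genes of the list were higher in Gas and 3 in Sol. Each Gas library lay above each Sol library for both ligases, and replicate 3 was the highest of its group in both muscles. *Gadd45a*, a growth arrest gene, had 71.0, 121, 326, 38.6 and 83.5 CPM in Gas and 7.37, 5.06, 10.6, 5.07 and 14.1 CPM in Sol (3.93, adjusted p 0.000187, SE 0.539). *Ddit4*, which restrains mTOR, differed by 2.82 (adjusted p 0.000284, SE 0.410), with 164 to 840.0 CPM in Gas and 29.4 to 65.7 CPM in Sol. Without Gas replicate 3, 12 atrophy genes were again higher in Gas. In WT, with fewer libraries, 3 were higher in Gas and 2 in Sol, with a median of 0.08. The edgeR fit of WT also called *Trim63* (3.26, adjusted p 0.0169), *Fbxo32* (1.82, adjusted p 0.00639) and *Gadd45a* (2.70, adjusted p 0.0281) higher in Gas. *Ddit4* was not called there (0.97, adjusted p 0.215).

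Of 22 glucocorticoid response genes, 11 were higher in LSD1-mKO Gas and 1, *Dusp1*, was higher in LSD1-mKO Sol, with a median of 0.60. The ribosomal covariate left 6 higher in Gas and 0 in Sol, so *Dusp1* lost its call there. *Tsc22d3*, a direct target of the glucocorticoid receptor, had 715, 597, 794, 415 and 607 CPM in Gas and 183, 122, 173, 175 and 168 CPM in Sol (log2 fold change 1.94, adjusted p 1.29e-05, SE 0.184). *Glul*, glutamine synthetase, had 1974, 1865, 2299, 1480 and 1641 CPM in Gas and 485, 376, 655, 426 and 489 CPM in Sol (1.94, adjusted p 1.23e-05, SE 0.183). *Cebpd* differed most, by 3.13 (adjusted p 0.000181, SE 0.427), with 99.8 to 685 CPM in Gas and 35.0 to 61.6 CPM in Sol. *Foxo1*, one of the factors through which wasting genes are induced, had 126 to 249 CPM in Gas and 46.3 to 61.8 CPM in Sol (1.77, adjusted p 2.27e-05, SE 0.182).

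**Figure D3:**
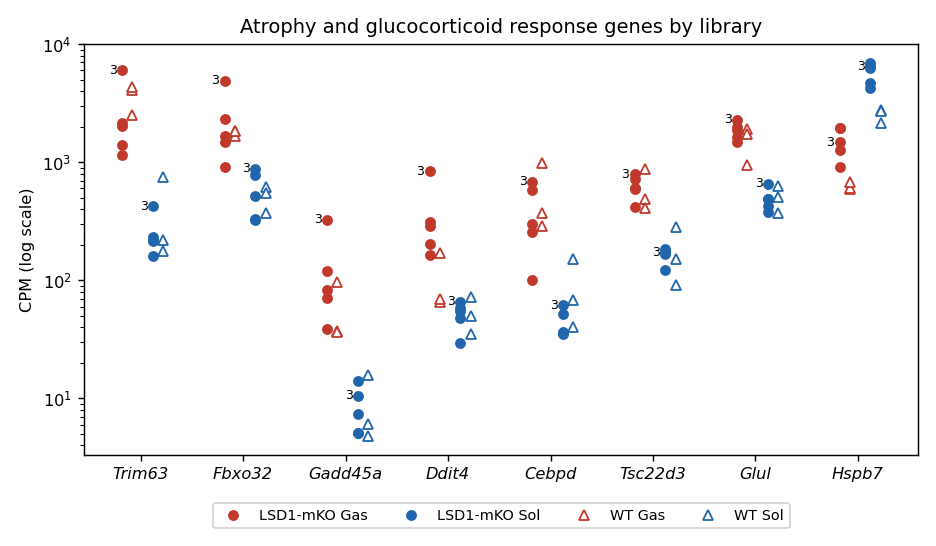
Levels of 8 atrophy and glucocorticoid response genes (x axis) in CPM on a log scale (y axis), 1 point per library. Filled circles are LSD1-mKO and open triangles WT, red is Gas and blue Sol, and the digit 3 marks LSD1-mKO replicate 3 of each muscle. For 7 of the genes all LSD1-mKO Gas points lie above all LSD1-mKO Sol points, and *Hspb7* lies the other way.

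Heat shock and load-sensitive genes lay on the side of Sol. Of 26 genes, 16 were higher in LSD1-mKO Sol and 0 higher in LSD1-mKO Gas, with a median of -0.94. *Csrp3*, a Z disc protein of stretched muscle, had 581, 698, 283, 183 and 386 CPM in Gas and 2739, 2886, 1768, 1377 and 1451 CPM in Sol (log2 fold change -2.24, adjusted p 0.000545, SE 0.355), and *Ankrd2* had 457 to 981 CPM in Gas and 2236 to 3491 CPM in Sol (-1.94, adjusted p 3.84e-05, SE 0.212). *Hspa1a* and *Hspa1b*, near-identical copies whose reads are uncertain, differed by -2.21 and -2.37.

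In the list of growth control, 5 genes were higher in LSD1-mKO Gas and 3 higher in LSD1-mKO Sol of 25 tested, and 8 and 6 with the replicate block. The ribosomal covariate left 3 higher in Gas and 0 in Sol. *Mstn*, myostatin, which limits muscle growth, had 20.9, 51.6, 53.7, 91.0 and 81.0 CPM in Gas and 1.27, 1.47, 0.555, 1.14 and 1.94 CPM in Sol (log2 fold change 5.57, adjusted p 2.00e-06, SE 0.414). *Cdkn1c*, an inhibitor of the cell cycle, was higher in Gas by 2.22 (adjusted p 5.01e-06, SE 0.183), and *H19*, an imprinted RNA, higher in Sol by -1.25 (adjusted p 0.0132, SE 0.331). The call of *H19* was lost with the ribosomal covariate. Of 21 genes of the synapse and of denervation, 3 were higher in Gas and 10 in Sol. The ribosomal covariate left 2 higher in Gas and 2 in Sol. It moved the median log2 fold change of this list from -0.31 to 0.02. *Chrne*, the adult receptor subunit, differed by 1.17 (adjusted p 0.00111, SE 0.204), and *Ncam1*, an adhesion molecule of denervated fibers, by -1.81 (adjusted p 8.36e-06, SE 0.159). *Chrng*, the fetal subunit, stood at 0 to 0.573 CPM in Gas and 0.531 to 5.42 CPM in Sol, near the limit of depth, and its call was lost without Sol replicate 1.

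Of 23 genes tested of the complexes in which LSD1 acts, and of other enzymes at lysine 4 of histone H3, 2 were higher in LSD1-mKO Gas and 1 higher in LSD1-mKO Sol, below the background. With the replicate block they numbered 5 and 1, which for Gas was not below the share of all genes under the block. With the ribosomal covariate 4 of the 23 were higher in Gas and 0 in Sol. All genes under that fit had shares of 5.34% and 6.05%, so the Gas share was above them. The gene higher in Sol without the covariate was *Kdm1b*, the closest relative of *Kdm1a*. It had 9.35 to 12.3 CPM in Gas and 15.1 to 20.2 CPM in Sol (log2 fold change -0.72, adjusted p 0.00100, SE 0.124). *Setd7*, a methyltransferase, was higher in Gas by 1.17 (adjusted p 0.0137, SE 0.311).

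**Figure D4:**
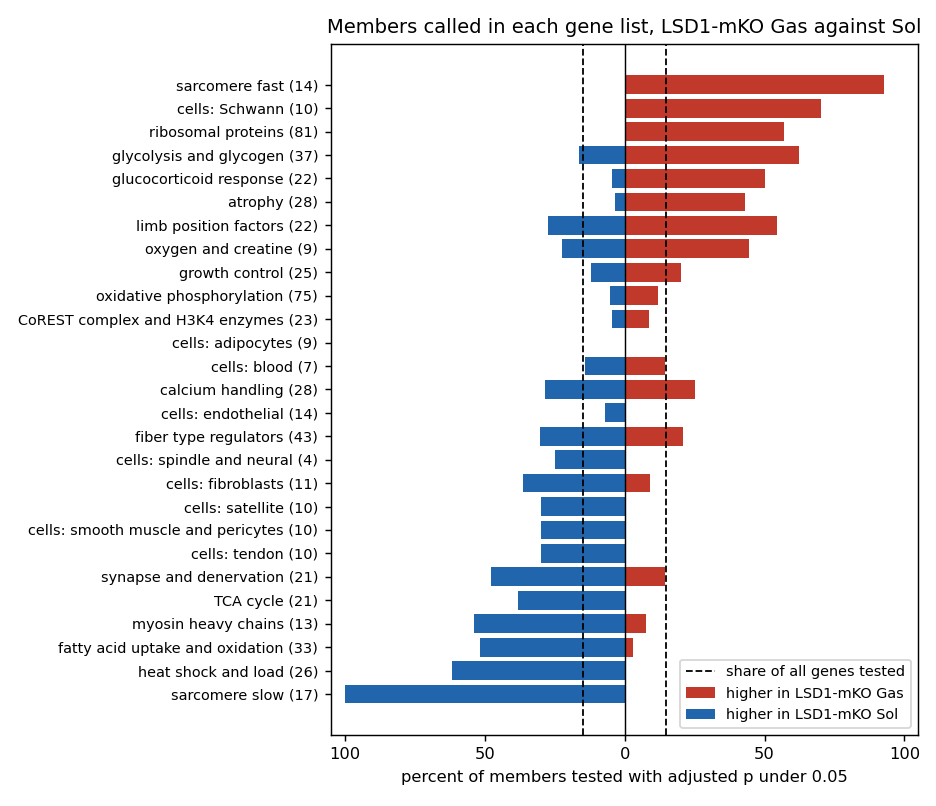
Share of the members tested (x axis, percent) that were higher in LSD1-mKO Gas (red, to the right) or in LSD1-mKO Sol (blue, to the left) at an adjusted p under 0.05, for each gene list (y axis, with the number of members tested). Dashed lines are the shares over all genes tested, 14.8% and 15%, and the fast and slow sarcomere lists stand at the 2 ends.

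By size, the largest differences toward LSD1-mKO Gas among well counted genes were *Odf3l2*, with 341, 179, 238, 269 and 348 CPM in Gas and 1.41, 0.941, 0.683, 6.90 and 8.13 CPM in Sol (log2 fold change 6.26, adjusted p 2.53e-05, SE 0.650), *Myh4*, *Mstn*, *Pvalb*, *Six2*, *Pfkfb3*, *Srrm4os*, *Tspan8*, *Chac1* and *Pla2g5*. *Srrm4os* lies antisense to *Srrm4*, whose reads cannot be told from it without strand. *Chac1*, an enzyme of glutathione breakdown, had 29.8, 127, 197, 249 and 299 CPM in Gas and 0.891, 1.24, 14.4, 6.78 and 15.8 CPM in Sol. The largest toward LSD1-mKO Sol were *Gm12295*, *Myh7*, *Sim1*, *Atp2a2*, *Myh3*, *Ces5a*, *Tpm3*, *Tnni1*, *Sv2b* and *Myl6b*. *Sim1*, a transcription factor, had 4.01, 10.6, 10.6, 10.4 and 9.23 CPM in Sol and at most 0.631 CPM in Gas (log2 fold change -4.83, adjusted p 5.16e-06, SE 0.40). The synaptic vesicle gene *Sv2b* had 1.68 to 5.85 CPM in Gas and 23.8 to 81.4 CPM in Sol. Contractile and calcium genes thus shared these places with genes of other or unknown roles.

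Cells other than fibers keep *Lsd1* in these mice, and their markers were counted in the same way. Of 10 Schwann cell markers, 7 were higher in LSD1-mKO Gas and 0 in LSD1-mKO Sol, with a median of 1.07, and their summed level ran from 192 to 769 CPM in Gas and from 170.1 to 251 CPM in Sol. With the ribosomal covariate none of the 7 was called, while the median was 1.07 as before. Of 11 fibroblast markers 1 was higher in Gas and 4 in Sol, with summed levels of 978 to 1270 CPM in Gas and 815 to 2875 CPM in Sol, and *Postn*, a matrix protein, had 25.5, 38.0, 22.7, 19 and 28.1 CPM in Gas and 591, 223, 214, 278 and 127 CPM in Sol (-3.41, adjusted p 3.42e-05, SE 0.368).

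Of the other cell lists, 1 of 14 endothelial markers, 3 of 10 smooth muscle and pericyte markers, 3 of 10 tendon markers and 3 of 10 satellite cell markers were higher in LSD1-mKO Sol, and none was higher in LSD1-mKO Gas. With the replicate block, under which 19.2% of all genes were higher in Gas and 19.3% in Sol, 7 endothelial and 5 smooth muscle markers were higher in Sol, and 1 endothelial and 1 tendon marker in Gas. The block also called 3 adipocyte markers in Gas and 1 in Sol, and 2 fibroblast markers in Gas and 6 in Sol. Neither direction held a called marker among 9 adipocyte genes tested, 1 blood marker was called in each direction, and the 6 hemoglobin genes were listed at 0 in all 10 libraries. The counting left out reads of several places or genes, so these values do not show that blood was absent. Of 9 spindle and neural markers, 4 were tested and 1, *Myh6*, was higher in Sol. The part of these cells in the differences above was not tested.

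The same comparison in WT, with LSD1 present, called 491 genes higher in Gas and 520 higher in Sol of 12938 tested, which is 3.8% and 4.02%. It rested on 3 libraries a muscle, and WT Gas replicate 3 stood apart by its ribosomal protein level of 8.69 log2 CPM, so the counts of the genotypes are not comparable as effects. Of 990 genes called in WT and tested in both genotypes, 861, or 87.0%, were also called in LSD1-mKO, all in the same direction. They made up 22.4% of the 3840 genes called in LSD1-mKO and tested in both. Of those 3840 genes, 3716 had the same sign in WT, as had 79.7% of all genes tested in both. The comparisons share no library. Across 12800 genes, which are not independent replicates, the log2 fold changes of the genotypes correlated with a Pearson r of 0.84. Without WT Gas replicate 3, WT called 1633 genes and 1253 genes were called in both, all in the same direction.

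The difference between the genotypes of the muscle difference was tested as an interaction over all 16 libraries. In the edgeR quasi-likelihood test 0 of 13749 genes (0%) passed an adjusted p of 0.05, the smallest being 0.164, and 671 genes (4.88%) had an unadjusted p under 0.05. DESeq2 called 21. The edgeR fit with the replicate block called 1 gene, *Mybph*, and that without LSD1-mKO Sol replicate 3 called 1, *Lrp2bp*. Whether lists differed between the genotypes was not tested, and the counts that follow are a description. The absolute log2 fold change was nearer 0 in LSD1-mKO than in WT in 12 of 14 fast sarcomere genes, 13 of 17 slow sarcomere genes, 28 of 37 glycolytic genes and 31 of 33 fatty acid genes, against 59.1% of all 12800 genes. With WT Gas replicate 3 left out these counts were 10, 15, 28 and 32, against 50.6% of all genes. Ribosomal protein genes (79 of 81) and oxidative phosphorylation genes (65 of 75) were also nearer 0 in LSD1-mKO, but only 20 and 29 were without that library.

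**Figure D5:**
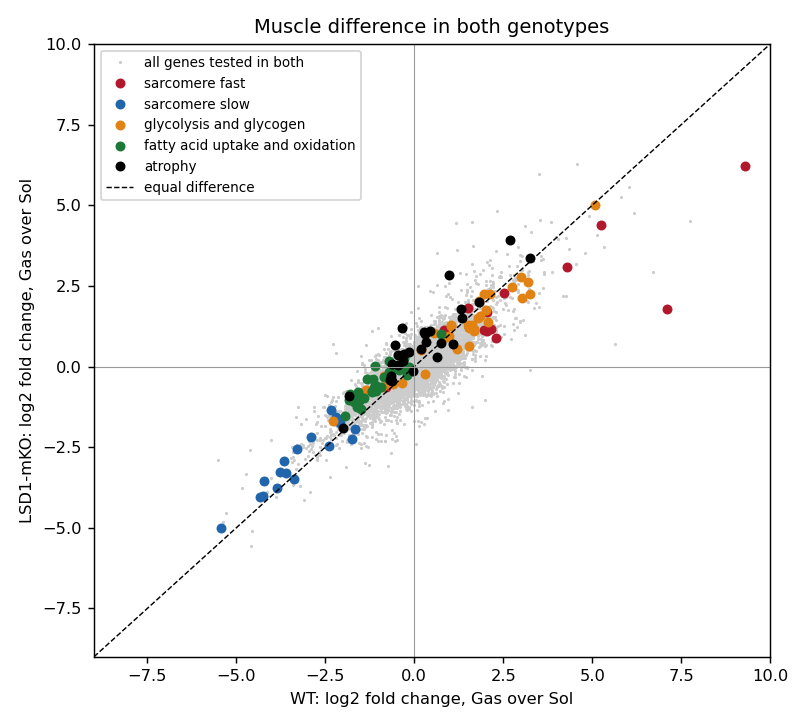
Log2 fold change of Gas over Sol in WT (x axis) and in LSD1-mKO (y axis), 1 point per gene tested in both genotypes, with members of 5 lists in color and the dashed line at equal differences. Fast and slow sarcomere genes keep their sides in both genotypes, and *Mybph* lies farthest below the line among the fast genes, at 7.11 in WT and 1.77 in LSD1-mKO.

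Among the genes with the smallest interaction p, *Mybph*, a myosin-binding protein, had 371, 279.6, 107, 86.5 and 92.8 CPM in LSD1-mKO Gas and 145, 56.4, 40.4, 20.1 and 15.6 CPM in LSD1-mKO Sol, which overlapped, and the ribosomal covariate and 6 of 10 leave-one-out fits removed its call in LSD1-mKO. In WT it had 253, 177 and 29.1 CPM in Gas and 0.962, 1.54 and 0.868 CPM in Sol. Every LSD1-mKO Sol library thus stood at least 10 times above every WT Sol library. The log2 fold changes of 1.77 (SE 0.599) and 7.11 had an unadjusted interaction p of 0.000205, and with the replicate block, which gave 1 call, *Mybph* was that call at an adjusted p of 0.0435. *Kcnf1*, a potassium channel subunit, had 0.568 to 12.3 CPM in LSD1-mKO Gas and 1.73 to 4.59 CPM in LSD1-mKO Sol, whereas WT had 102, 29.2 and 11.3 CPM in Gas and 0.802, 1.47 and 0.636 CPM in Sol. It was called in WT (5.65, adjusted p 0.00879) and not in LSD1-mKO (0.70, adjusted p 0.360). *Lrp2bp* was called in WT (3.25, adjusted p 0.00146) and not in LSD1-mKO (-0.12, adjusted p 0.838), at 5.20 to 7.38 CPM in WT Gas and 0.853 to 3.35 CPM in the 10 LSD1-mKO libraries.

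Other genes parted the muscles more in LSD1-mKO than in WT by the same order of p. *Ndrg4* had 6.13, 7.70, 4.40, 4.10 and 4.07 CPM in LSD1-mKO Gas and 65.0, 44.1, 43.4, 55.6 and 18.7 CPM in LSD1-mKO Sol, against 2.62 to 6.01 CPM in WT Gas and 5.68 to 7.29 CPM in WT Sol. Its log2 fold change was -3.08 (adjusted p 2.00e-05, SE 0.311) in LSD1-mKO and -0.73 in WT (unadjusted interaction p 0.000177). *Aldoart2* and *Aldoart1*, which resemble *Aldoa* and may hold its reads, differed by 3.74 and 3.16 in LSD1-mKO and by 1.64 and 1.61 in WT. *Ankrd1*, a load-sensitive cofactor, was called in LSD1-mKO with the opposite sign in WT, at 17.3 to 68.9 CPM in LSD1-mKO Gas and 52.0 to 102 CPM in LSD1-mKO Sol (-1.26, adjusted p 0.0170, SE 0.350, not called with the ribosomal covariate), and its WT value of 1.62 (adjusted p 0.262) came with 213 CPM in WT Gas replicate 3 against 30.8 and 26.7 in the others.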

How the data were processed

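Single-end libraries of poly(A) RNA from Gas and Sol had a read length of 75 bp. The authors used STAR on mm10, and featureCounts 1.5.2, named in the headers, assigned reads to the iGenomes UCSC exons. The deposited tables hold raw counts of 24421 genes per muscle. No strand option is named, and reads of several places or genes were left out. 0 columns belonged to other samples. The tables of both muscles were joined by gene.

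Libraries held 10130415 to 24576377 reads, which sets the precision of low values. In R 4.3.3, edgeR 4.0.16 kept genes by filterByExpr (minimum count 10), scaled by TMM and compared Gas with Sol in quasi-likelihood fits (glmQLFTest, Benjamini-Hochberg adjusted p under 0.05), in the 10 LSD1-mKO libraries, in the 6 WT libraries and, for the interaction, in all 16. SE was obtained from the log2 fold change and F. Isoform ratios added 0.5 reads to each count. Alternatives were RLE, no filter, DESeq2 1.42.0, glmTreat, a ribosomal protein covariate, 1 fit of all libraries, a replicate block and leaving out each library; those on lists (covariate, left-out libraries, length) and the WT fit without Gas replicate 3 for genes nearer 0 were chosen after the data were seen. Same-numbered LSD1-mKO Gas and Sol libraries deviated together from their group means (r 0.32, 0.21, 0.35, 0.20 and 0.31 over 13749 genes), so the number pairs them in LSD1-mKO. The scripts were tested on simulated data.

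Samples were grouped by labels. Members and gene lists were chosen with earlier results of these data known. Genes named are the markers, the isoform pairs, *Kdm1a* and *Esr1*, up to 4 called members of a list with the largest change in each direction (any member in lists of at most 12), the 10 largest called changes in each direction with non-overlapping muscles and a mean of 50 reads or more, the 5 smallest interaction p in each direction, and the 5 widest gaps among genes called only in WT or with opposite signs. *Myh1* and *Myh2* come from the myosin shares, and *Myh8*, *Myh9*, *Myh11* and *Myh14* were added after their values were seen. Coordinates and sequences are from RefSeq (GRCm38.p6), transcript lengths (96.5% of genes tested) from GENCODE. Results for some genes are not reported here.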

Additional observations from a re-analysis of the deposited data

Results flagged for a closer look

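In each group of 5 LSD1-mKO libraries, a gene or isoform ratio is listed here when the gap between its highest or lowest library and the nearest other library took up an unusually large part of the group's range, by Dixon's test at the 95% level. Of 238 such tests 30 were positive, and chance gives about 1 in 20. Levels are in CPM and the gap is a fraction of the range.

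Gas replicate 5 stood highest for 8 genes, mostly of fast fibers or with short mRNAs. It had 19989 for *Tnnc2* against 6414 to 9736 in the others (gap 0.755), 26380 for *Tnni2* against 10002 to 12473 (gap 0.849), and 34713 for *Tnnt3* against 21252 to 24250 (gap 0.777). It also had 10440 for *Pvalb* (gap 0.875), 5185 for *Mb* (gap 0.882), 1698 for *Atp5e* (gap 0.797) and 321 for *Ndufa3* (gap 0.781), and for *Ckmt2* it had 1769 against 1026 to 1227 (gap 0.729). This library also had the highest ribosomal protein level of the LSD1-mKO libraries, and the part of that level was not tested for single libraries.

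Replicate 3 stood highest for wasting genes. In Gas it had 6022 for *Trim63* against 1160 to 2139 (gap 0.799), 326 for *Gadd45a* against 38.6 to 121 (gap 0.714) and 840.0 for *Ddit4* against 164 to 311 (gap 0.782). In Sol it had 423 for *Trim63* against 161 to 232 (gap 0.729). Gas replicate 3 was also highest for *Slc2a1*, at 28.0 (gap 0.782), and *Lpl*, at 830.0 (gap 0.742).

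Of the other Gas libraries, replicate 1 was highest for *Actn3*, at 19706 against 15868 to 16182 (gap 0.918), and for the log2 ratio of *Mybpc2* to *Mybpc1*, at 3.70 against 2.59 to 2.68 (gap 0.918). Replicate 2 was highest for *Myh3*, at 15.8 (gap 0.735), and *Ncam1*, at 10.4 (gap 0.820). Replicate 4 was lowest for *Tpm3*, at 156 against 239 to 264 (gap 0.771), and *Myh6*, at 1.52 (gap 0.782).

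In Sol, replicate 1 was lowest for *Tpm3*, at 3063 (gap 0.755), *Idh2*, at 882 against 1323 to 1503 (gap 0.711), and *Sim1*, at 4.01 (gap 0.793), and highest for *Chrng*, at 5.42 (gap 0.751). Replicate 2 was highest for *Sln*, at 551 against 228 to 276 (gap 0.849), and *Hoxd10*, at 0.883 (gap 0.744), and lowest for *Tsc22d3*, at 122 (gap 0.760). Replicate 4 was highest for *Gm12295*, at 14.4 (gap 0.731). Replicate 5 was highest for *Myh7b*, at 53.9 (gap 0.742), and for the log2 ratio of *Casq1* to *Casq2*, at 1.26 (gap 0.808).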

How the results depend on the processing

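In place of the 3911 genes called in LSD1-mKO, 1498 genes were called with the ribosomal covariate, and other settings gave 3367 to 5067, with 2986 to 4005 when a library was left out. The at least 2-fold calls, 1353 in all, fell to 831 with that covariate and to 401 when edgeR's glmTreat tested against a 2-fold change itself. In WT, 1011 calls became 1898 with DESeq2, 396 with a replicate block, 2337 with all libraries in 1 fit, 1779 with the covariate, and 308 to 1633 without a library. The lowest count came without WT Sol replicate 3 and the highest without WT Gas replicate 3, and leaving out WT Gas replicate 1 or WT Sol replicate 1 gave 410 and 317. The interaction had 21 calls with DESeq2, 1 with the replicate block and 0 to 1 without a library, the 1 being *Lrp2bp* without LSD1-mKO Sol replicate 3. Genes called in both genotypes in the same direction numbered 1566 with DESeq2. The cause of these changes was not tested. Isoform ratios (with a pseudocount of 5 reads or a library left out) and myosin shares (without division by length or with a library left out) kept direction and side of the threshold. Log2 fold changes turned sign with the covariate for *Casq1* (-0.40), *Atp5e* (-0.31) and *Lrp2bp* (0.083). Without a library *Casq1* ranged from -0.011 (Gas replicate 5 left out) to 0.28 and *Lrp2bp* from -0.32 to 0.14, and neither was called. Of 99 named genes called, 95 kept the call without any 1 library, 20 lost it with the covariate, and 2, *Atp5e* and *Ankrd1*, lost it with all libraries in 1 fit. Lost with the covariate were *Tnnc2*, *Mylpf*, *Myl1*, *Tnni2*, *Tnnt3*, *Sln*, *Esrrg*, *Kdm1b*, *Slc16a1*, *Slc2a1* and *Gbe1*. Also lost with it were *Atp5e*, *Ndufa3*, *Uqcr11*, *Dusp1*, *Chrng*, *H19*, *Gm12295*, *Mybph* and *Ankrd1*. *Kdm1a* was called with DESeq2. The replicate block pairs LSD1-mKO libraries and changed the calls of *Kdm1a* and *Myh1* and no other call of a named gene in LSD1-mKO. In WT, same-numbered libraries did not deviate together (r 0.11, -0.49 and -0.24), so there the number pairs nothing. Low genes such as *Six2* in Sol and *Chrng* in Gas are limited by depth.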
